A study of Homo sapiens with 16 samples.

Results

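The *BCL2* family decides, at the outer mitochondrial membrane, whether a stressed cell survives. Its RNA levels were followed here in sublines of 2 mesenchymal triple-negative breast cancer (TNBC) lines that differ in the activity of a Wnt reporter. The members were chosen by name and role, with earlier results of these data known. They are 10 of the 57820 genes in the deposited tables: the anti-apoptotic genes *BCL2*, *BCL2L1*, *MCL1* and *BCL2A1*, the effectors *BAX* and *BAK1*, and the BH3-only genes *BCL2L11*, *BBC3*, *PMAIP1* and *BMF*. RNA-seq libraries were made from MDA-MB-231, which carries a mutation in *CDKN2A*, and from MDA-MB-436, which is mutated in *BRCA1*. All cells of both lines carried 7TGP, a vector in which Tcf/Lef binding sites drive eGFP and which confers resistance to puromycin. After selection, repeated sorting of the brightest eGFP-positive and the dimmest eGFP-negative cells gave a 7TGP-POS and a 7TGP-NEG subline of each line. Each subline was profiled after 3 days in 0.5% FBS (low serum) and after 6 days in 10% FBS (standard serum), with 2 replicates in each of the 8 groups and 16 libraries in all.

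Several limits of this design touch every value below. Each subline is 1 sorted population, so reporter activity and any other difference between sublines cannot be told apart. The low-serum libraries were made after depletion of ribosomal RNA and the standard-serum libraries from polyadenylated RNA, on different sequencers, so serum, day and library type cannot be told apart either, and no test was made between serum conditions. According to the methods of the study the lines were also kept in different media, whereas the sample labels name 1 medium, so a difference between lines may include the medium. In bulk RNA, fewer cells that express a gene and less RNA per cell cannot be told apart. With 2 replicates per group, p-values measure the spread between these libraries.

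In living cells the anti-apoptotic proteins BCL2, BCL-XL (encoded by *BCL2L1*), MCL1 and BFL1 (encoded by *BCL2A1*) hold BAX and BAK in check. The BH3-only proteins BIM (*BCL2L11*), PUMA (*BBC3*), NOXA (*PMAIP1*) and BMF are made or released under stress, such as DNA damage, loss of growth factors or detachment from matrix. They bind the groove of the anti-apoptotic proteins, and BAX and BAK then open the outer membrane and release cytochrome c. NOXA binds mainly MCL1 and BFL1, whereas BIM and PUMA bind all the anti-apoptotic proteins. Many of these proteins are also controlled after transcription, MCL1 and BIM by degradation, which RNA levels do not show. Gene counts also do not separate splice forms such as BCL-XL and BCL-XS.

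The libraries held 27918418 to 32667756 counted read pairs in low serum and 31827130 to 46044073 in standard serum, and levels of a gene are given as CPM, counts scaled to the total of the library. Mitochondrial genes took 0.331% to 0.938% of counts in low serum and 0.957% to 2.28% in standard serum. Of the markers, the mesenchymal genes *VIM*, *FN1*, *AXL* and *ZEB1* had group means of 30.9 to 4905 CPM over both serum conditions, and the epithelial genes *CDH1*, *GRHL2*, *ESRP1* and *EPCAM* at most 0.27, 0.10, 1.28 and 8.18 CPM. *CDKN2A* had group means of 0 to 0.204 CPM in MDA-MB-231 and 82.5 to 119 CPM in MDA-MB-436. The 7 canonical Wnt target genes on the marker list were 3 higher and 1 lower in 7TGP-POS than in 7TGP-NEG cells of MDA-MB-231 in low serum, and 1 higher and 0 lower in standard serum, where 38.9% and 33.0% of all tested genes changed. For MDA-MB-436 the counts were 1 higher and 2 lower, and 0 higher and 2 lower, against 52.0% and 49.5%. The 4 mesenchymal genes were 0 higher and 1 lower, and 0 higher and 2 lower, in 7TGP-POS cells of MDA-MB-231, and 3 higher and 1 lower, and 3 higher and 0 lower, in those of MDA-MB-436. *VIM* changed by -1.05 and -1.03 on the log2 scale in MDA-MB-231. Of the 4 epithelial genes 1 changed, *ESRP1*, which was lower in MDA-MB-231 in standard serum. The part of these markers in the members' values was not tested. Protein-coding genes were tested with edgeR's quasi-likelihood test, 16069 in low serum and 15414 in standard serum. A gene is said to have changed where the Benjamini-Hochberg adjusted p was under 0.05, and it counts as a differentially expressed gene (DEG) where the absolute log2 fold change was also at least 1. Fold changes come from counts scaled by TMM, whose factors lay between 0.901 and 1.11, and so can depart from ratios of the CPM values. Of all tested genes, 65.7% and 66.9% had CPM values without overlap between the MDA-MB-231 sublines, in low and standard serum. For MDA-MB-436 the shares were 74.0% and 73.2%, and between lines 87.4% to 90.9%. Between reporter states 7 and 8 of the 10 members, *BCL2A1* included, had no overlap in each line. A lack of overlap is thus the usual outcome with 2 libraries per group.

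*BCL2L1* and *MCL1* were the most abundant anti-apoptotic RNAs in every group, and which of them came first differed between the lines and, in MDA-MB-231 in low serum, between the reporter states. Levels of different genes were compared as deposited TPM values, which are scaled by gene length and by library. In MDA-MB-231 7TGP-NEG cells *BCL2L1* stood first, at 384 ± 7.63 TPM in low serum and 1181 ± 33.5 TPM in standard serum (SD, n = 2). *MCL1* came next at 297 ± 12.5 TPM and 599.6 ± 0.955 TPM. In MDA-MB-231 7TGP-POS cells *MCL1* led in low serum, at 256 ± 19.99 TPM against 220.1 ± 13.8 TPM of *BCL2L1*, with no overlap of the libraries. *BCL2L1* led again in standard serum, at 735 ± 41.0 TPM against 581 ± 27.7 TPM. In MDA-MB-436 *MCL1* was first in all 4 groups, from 378 ± 30.2 TPM in 7TGP-POS cells in low serum to 629.6 ± 25.3 TPM in 7TGP-POS cells in standard serum, with *BCL2L1* between 105 ± 3.04 and 259 ± 2.51 TPM. The ratio of *BCL2L1* to *MCL1*, taken within each library, was 1.29 ± 0.0288 in MDA-MB-231 7TGP-NEG and 0.861 ± 0.0134 in 7TGP-POS in low serum. The standard-serum ratios of these sublines were 1.97 ± 0.0527 and 1.27 ± 0.131. In MDA-MB-436 it was 0.260 ± 0.0142 and 0.279 ± 0.0143 in low serum, with standard-serum ratios of 0.347 ± 0.00320 and 0.412 ± 0.0126. The ratio was thus higher in every MDA-MB-231 library than in every MDA-MB-436 library, and within MDA-MB-231 lower in both 7TGP-POS libraries than in both 7TGP-NEG libraries. These TPM comparisons are descriptions with no test.

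The sum of the TPM of 5 anti-apoptotic genes, the 4 members and *BCL2L2* (BCL-W), gives the same picture. *BCL2L1* made up 54.3% ± 0.511 of it in MDA-MB-231 7TGP-NEG and 43.2% ± 0.403 in 7TGP-POS in low serum (SD, n = 2). The shares in standard serum were 64.6% ± 0.673 and 52.3% ± 2.46. In MDA-MB-436 the share of *BCL2L1* was 18.8% ± 0.840 to 26.0% ± 0.649. *MCL1* took most of the rest, with 32.8% to 50.2% in the MDA-MB-231 groups and 63.1% to 72.6% in the MDA-MB-436 groups. *BCL2A1* made up more than 1% of the sum in 2 groups alone, the MDA-MB-231 7TGP-POS cells, at 2.09% in low serum and 3.05% in standard serum. The group mean of *BCL2* itself, the founding member, was at most 0.758% of the sum. Its level was 1.99 to 6.98 TPM across the groups.

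**Figure D1:**
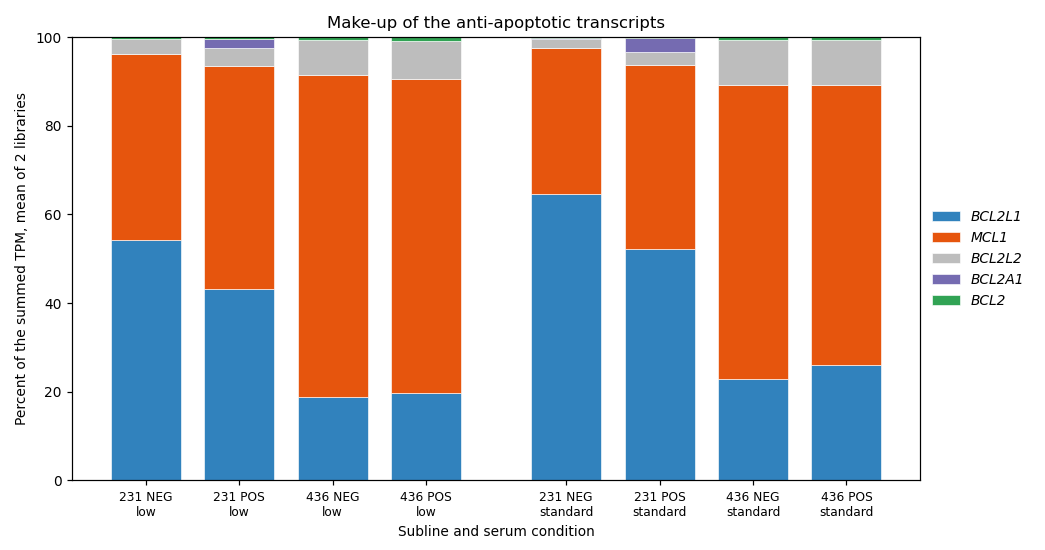
Mean share (percent of the summed TPM, y axis from 0) of *BCL2L1*, *MCL1*, *BCL2L2*, *BCL2A1* and *BCL2* in each of the 8 groups (x axis), as stacked bars of the mean of 2 libraries. *BCL2L1* fills 43.2% to 64.6% of the MDA-MB-231 bars and 18.8% to 26.0% of the MDA-MB-436 bars, and *BCL2A1* is visible in the MDA-MB-231 7TGP-POS bars.

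Among the pro-apoptotic members *PMAIP1* was the most abundant in every group. It ranged from 76.7 ± 5.16 TPM in MDA-MB-436 7TGP-POS in low serum to 169.5 ± 5.23 TPM in standard-serum MDA-MB-231 7TGP-POS cells. *BAX* and *BAK1* followed, between 34.3 and 125 TPM, and their order could not be separated in 3 of the 8 groups, where their libraries overlapped. *BMF*, *BBC3* and *BCL2L11* were lower in all groups, between 1.96 TPM (*BCL2L11* in MDA-MB-231 7TGP-POS in low serum) and 31.5 TPM (*BBC3* in standard-serum cells of the same subline). In low serum, protein-coding genes held 41.0% to 69.6% of all TPM, against 94.3% to 95.7% in standard serum, so TPM values serve to order genes within a library, and ranges over groups of both serum conditions are not comparisons between them.

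**Figure D2:**
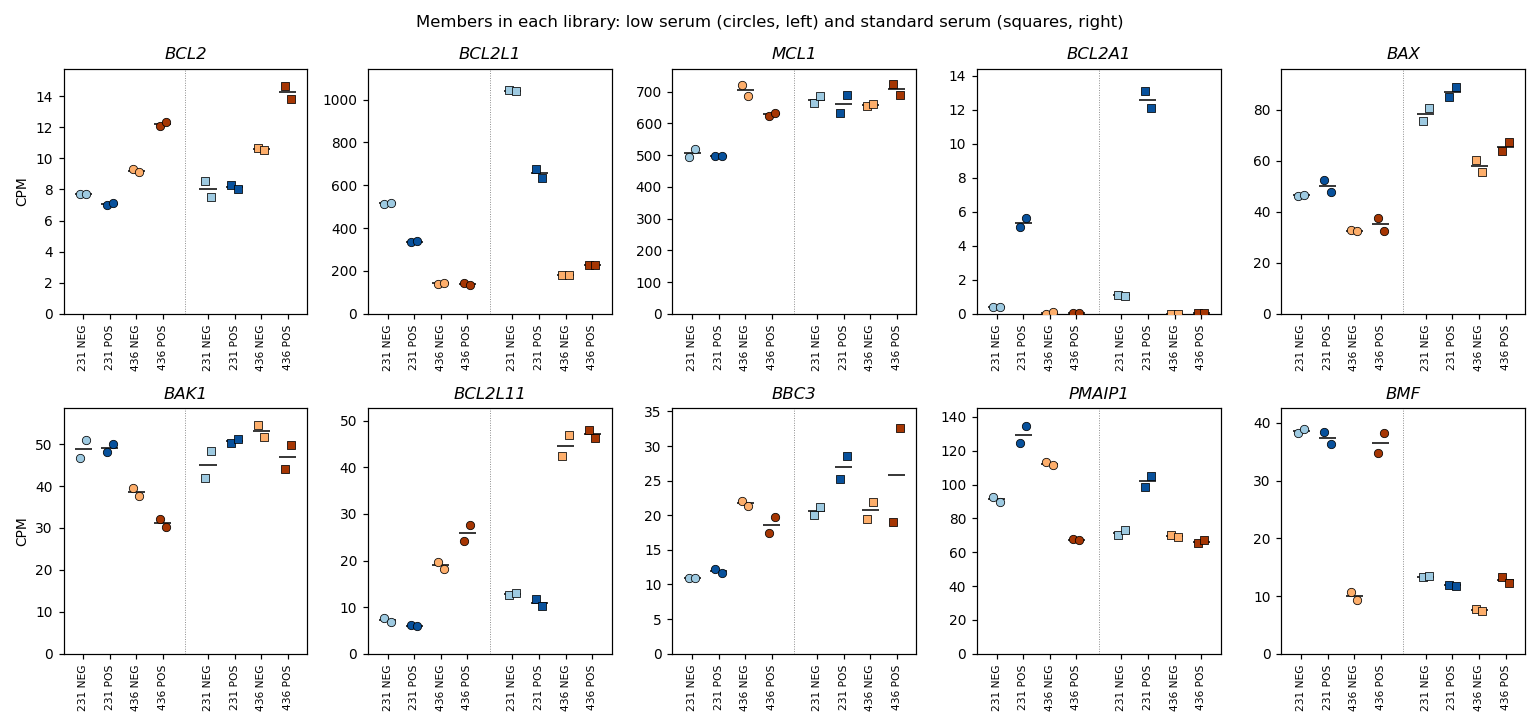
CPM (y axis, from 0, with its own scale per gene) of the 10 members in each library, by group (x axis). Points are libraries, circles for low serum and squares for standard serum, and bars are the mean of 2 libraries. *BCL2A1* stands at 5.08 to 13.1 CPM in the MDA-MB-231 7TGP-POS libraries and at most 1.10 CPM elsewhere, and *BMF* in low serum is near 10 CPM in MDA-MB-436 7TGP-NEG and above 34 CPM in the other 3 groups.

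The comparison of 7TGP-POS with 7TGP-NEG cells asks how the reporter states of a line differ. In MDA-MB-231, *BCL2A1* and *PMAIP1* were higher and *BCL2L1* was lower in 7TGP-POS cells in both serum conditions. In low serum 3 of 10 members changed, 2 higher and 1 lower, where 38.9% of all tested genes changed, 19.0% higher and 19.9% lower. *BCL2A1* was the 1 DEG, against 5.90% of all genes. In standard serum 4 of 10 members changed, 2 higher and 2 lower, against 33.0% of all genes, 16.8% higher and 16.2% lower. *BCL2A1* was again the 1 DEG, against 7.69% of all genes. The median log2 fold change of the members was 0.002 in low serum and 0.03 in standard serum, beside -0.01 and 0 over all tested genes. With limma on the deposited TPM, standard serum had 2 members higher and 1 lower, since the call of *BCL2L11* was lost.

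In MDA-MB-436 *BMF* was higher in 7TGP-POS cells in both serum conditions, as was *BCL2*, and *BAK1* was lower in both. *BCL2A1* had at most 3 counts in each of the 8 MDA-MB-436 libraries, the limit taken here for detection, and is left out of these counts. In low serum 7 of the other 9 members changed, 3 higher and 4 lower, against 52.0% of all tested genes, 26.6% higher and 25.3% lower. *BMF* was the 1 DEG, against 10.5% of all genes. In standard serum 4 of 9 changed, 3 higher and 1 lower, against 49.5% of all genes, 26.1% higher and 23.4% lower, with 0 DEGs against 12.5% of all genes. The middle log2 fold change of these 9 members was -0.07 (*BCL2L1*) in low serum and 0.12 (*BAX*) in standard serum. The medians over all genes were 0.01 and 0.00. With limma on log2(TPM + 1) the split was 1 higher and 5 lower in low serum, where the median of all genes was -0.15 on that scale, and 4 higher and 0 lower in standard serum. Leaving out 1 MDA-MB-436 7TGP-NEG library, either of them, left 2 members called in standard serum.

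**Figure D3:**
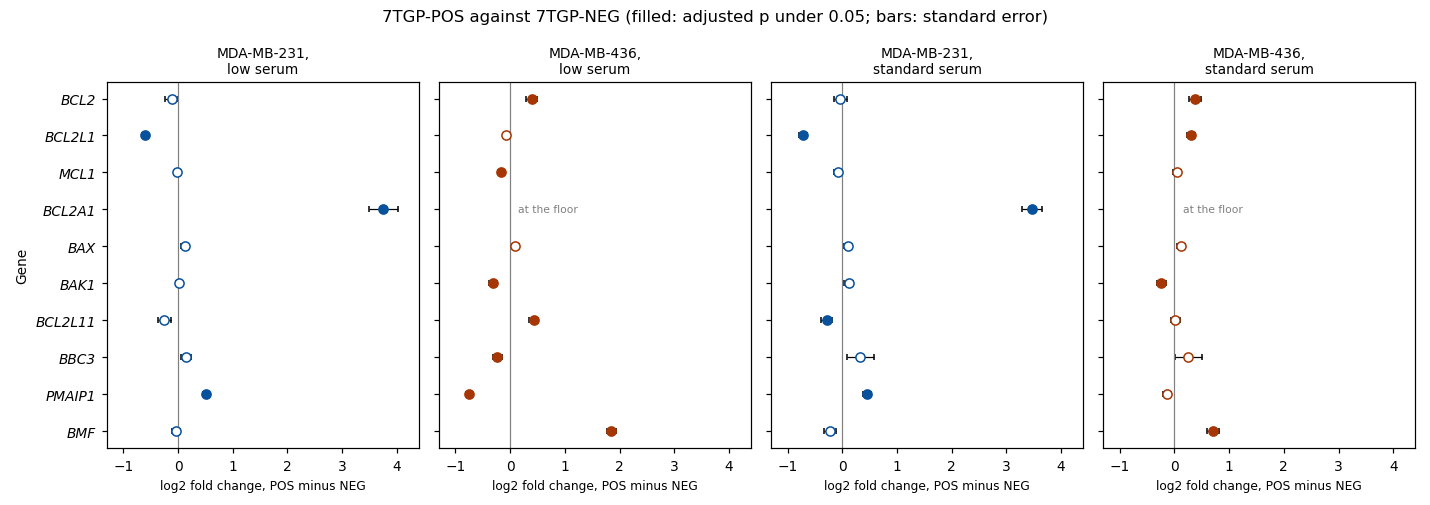
Log2 fold change of 7TGP-POS against 7TGP-NEG (x axis, edgeR, error bars are 1 SE) of the 10 members (y axis) in each line and serum condition (4 panels). Filled points passed the test and open points did not. *BCL2A1* lies at 3.75 and 3.47 in MDA-MB-231 and is at the detection limit in MDA-MB-436, and *BMF* lies at 1.85 and 0.70 in MDA-MB-436 and close to 0 in MDA-MB-231.

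*BCL2A1* (ENSG00000140379; chr15:80253234-80263538, minus strand, GRCh37) encodes BFL1, a short-lived anti-apoptotic protein best known from blood cells and melanoma and a target of NF-κB. In low serum it was at 0.391 and 0.401 CPM in MDA-MB-231 7TGP-NEG, from 12 counts in each library, and at 5.08 and 5.64 CPM in 7TGP-POS, from 152 and 160 counts. The log2 fold change was 3.75 ± 0.267 (SE), which is 13.5-fold (edgeR adjusted p = 4.02e-15). In standard serum it was at 1.10 and 1.07 CPM in 7TGP-NEG and 13.1 and 12.1 CPM in 7TGP-POS. The log2 fold change there was 3.47 ± 0.182, or 11.1-fold (edgeR adjusted p = 1.60e-10). All 7TGP-POS libraries of MDA-MB-231 thus stood well above all 7TGP-NEG libraries of the same serum condition, with the level nevertheless far below those of *BCL2L1* and *MCL1*. In MDA-MB-436 the 8 libraries held 0 to 3 counts, which is at most 0.105 CPM, so *BCL2A1* was not detectable at this depth and no fold between the MDA-MB-436 sublines is given. Of the 50 genes nearest to *BCL2A1* on the chromosome, 1 had as large a change, in either direction, in MDA-MB-231 in low serum and 0 in standard serum. Their median log2 fold changes were 0.02 and -0.03. The promoter of *BCL2A1* is shown because this gene had the largest change of the family. It is the 250 bases before the RefSeq start (GRCh38.p14, chr15:79971197-79971446, minus strand), and held none of the motifs searched in the members' promoters, which are named below.
BCL2A1: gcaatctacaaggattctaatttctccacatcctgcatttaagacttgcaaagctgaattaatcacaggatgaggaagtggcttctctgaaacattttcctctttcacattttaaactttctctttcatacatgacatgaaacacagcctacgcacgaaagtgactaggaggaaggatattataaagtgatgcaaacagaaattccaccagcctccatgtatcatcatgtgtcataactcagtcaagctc

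*BCL2L1* (ENSG00000171552; chr20:30252255-30311792, minus strand) was the most abundant member by TPM in MDA-MB-231 7TGP-NEG cells and was lower in 7TGP-POS cells. In low serum it was at 511 and 519 CPM in MDA-MB-231 7TGP-NEG and 333 and 341 CPM in 7TGP-POS. The log2 fold change was -0.60 ± 0.04995 (SE), 1.52-fold lower (edgeR adjusted p = 3.56e-13). In standard serum the values were 1045 and 1039 CPM against 675 and 635 CPM. The log2 fold change was -0.72 ± 0.0729, 1.65-fold lower (edgeR adjusted p = 4.22e-07). No 7TGP-POS library reached the level of a 7TGP-NEG library in either condition. In this line 65.7% and 66.9% of all tested genes had no overlap. In MDA-MB-436 the levels in low serum were 141 and 146 CPM in 7TGP-NEG and 142 and 134 CPM in 7TGP-POS, and these overlapped, with a log2 fold change of -0.07 that did not pass the test (edgeR adjusted p = 0.282). It passed when replicate 1 of MDA-MB-436 7TGP-POS was left out (-0.18) and with limma on log2(TPM + 1) (-0.32), where the median of all genes was -0.15. In standard serum *BCL2L1* rose in MDA-MB-436, from 179 CPM in both 7TGP-NEG libraries to 229 and 228 CPM in 7TGP-POS, a log2 fold change of 0.30 ± 0.0733 or 1.23-fold (edgeR adjusted p = 0.00264). The genes around *BCL2L1* on chromosome 20 also tended to be lower in MDA-MB-231 7TGP-POS cells. The 50 nearest had median log2 fold changes of -0.25 and -0.31 in the respective conditions. Of them, 10 and 11 had a change as large as that of *BCL2L1*, in either direction. Whether a change of the whole region has a part in the value of *BCL2L1* was not tested. RefSeq gives 2 starts for *BCL2L1*. The promoter of the first (GRCh38.p14, chr20:31723964-31724213, minus strand) is shown because the gene differed between the MDA-MB-231 sublines under both serum conditions. It held none of the searched motifs.
BCL2L1: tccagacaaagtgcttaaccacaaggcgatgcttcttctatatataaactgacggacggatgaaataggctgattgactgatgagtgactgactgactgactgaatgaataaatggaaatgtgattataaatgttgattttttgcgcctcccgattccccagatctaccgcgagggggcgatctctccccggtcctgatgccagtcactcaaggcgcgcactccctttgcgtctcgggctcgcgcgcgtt

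*MCL1* (ENSG00000143384; chr1:150533371-150552214, minus strand), whose protein turns over within a short time, lay between 494 and 724 CPM in all 16 libraries. In MDA-MB-231 it was at 494 and 519 CPM in 7TGP-NEG and 498 CPM in both 7TGP-POS libraries in low serum, and at 663 and 685 CPM against 632 and 688 CPM in standard serum. The log2 fold changes of -0.01 and -0.08 did not pass the test (edgeR adjusted p = 0.858 and 0.423). In MDA-MB-436 it fell in low serum, from 720.3 and 687 CPM in 7TGP-NEG to 624 and 633 CPM in 7TGP-POS, a log2 fold change of -0.18 ± 0.0491 (edgeR adjusted p = 0.00253). This call was lost without replicate 1 of MDA-MB-436 7TGP-NEG (-0.16). In standard serum the values were 654 and 662 CPM against 724 and 690.0 CPM, with a log2 fold change of 0.05 (edgeR adjusted p = 0.629). *MCL1* overlaps *ADAMTSL4* on the other strand, and both library kits keep strand. The methods of the study state that read orientation was determined, while the strand setting of the counting itself is not given in the sources used here.

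*BCL2* (ENSG00000171791; chr18:60790579-60987361, minus strand) was a low-level gene in all 16 libraries. In MDA-MB-231 it was at 7.73 and 7.68 CPM in 7TGP-NEG and 7.02 and 7.12 CPM in 7TGP-POS in low serum, and at 8.52 and 7.54 CPM against 8.27 and 8.03 CPM in standard serum. Neither log2 fold change passed the test (-0.12 and -0.04, edgeR adjusted p = 0.470 and 0.875). In MDA-MB-436 it was higher in both 7TGP-POS libraries of each serum condition. Its 50 nearest genes had median log2 fold changes of 0.19 and 0.09 there, in low and standard serum, and its 20 nearest 0.33 and 0.28. Of the 50, 16 and 19 had a change as large as that of *BCL2*, in either direction. Whether a change of the region has a part in the value of *BCL2* was not tested. In low serum *BCL2* went from 9.31 and 9.11 CPM to 12.1 and 12.4 CPM, a log2 fold change of 0.40 ± 0.103 (edgeR adjusted p = 0.00119). In standard serum it went from 10.7 and 10.5 CPM to 14.6 and 13.8 CPM, a log2 fold change of 0.37 ± 0.112 (edgeR adjusted p = 0.0101). The first call was lost with limma on log2(TPM + 1), where the value was 0.12 and 0.27 above the median of all genes. The second was lost without MDA-MB-436 7TGP-NEG replicate 1 (0.37) or 2 (0.35), without 7TGP-POS replicate 1 (0.30) and with DESeq2's Wald test (0.34).

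Of the effectors, *BAX* (ENSG00000087088; chr19:49458072-49465055, plus strand) did not pass the edgeR test between reporter states in either line. It was at 46.2 and 46.6 CPM in MDA-MB-231 7TGP-NEG and 52.5 and 47.7 CPM in 7TGP-POS in low serum, and at 75.6 and 80.8 CPM against 85.1 and 88.7 CPM in standard serum. In MDA-MB-436 it was at 32.7 and 32.5 CPM against 37.6 and 32.6 CPM in low serum, and at 60.3 and 55.7 CPM against 63.7 and 67.4 CPM in standard serum. The 7TGP-POS mean was the higher one in all 4 comparisons, by log2 fold changes of 0.10 to 0.12, with overlapping libraries in MDA-MB-436 in low serum, and the edgeR adjusted p lay between 0.158 and 0.359. With limma on log2(TPM + 1) the sign turned in low serum, to -0.08 in MDA-MB-231 and -0.15 in MDA-MB-436, where the medians of all genes were -0.13 and -0.15, and neither passed. The standard-serum value in MDA-MB-436 was 0.21 on that scale and passed the test.

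*BAK1* (ENSG00000030110; chr6:33540324-33548070, minus strand), the effector that sits in the mitochondrial membrane of healthy cells, was lower in MDA-MB-436 7TGP-POS cells. In low serum it was at 39.5 and 37.5 CPM in MDA-MB-436 7TGP-NEG and 32.3 and 30.3 CPM in 7TGP-POS, a log2 fold change of -0.31 ± 0.0676 (edgeR adjusted p = 0.000136). The standard-serum values were 54.5 and 51.6 CPM against 44.2 and 49.7 CPM, a log2 fold change of -0.24 ± 0.0857 (edgeR adjusted p = 0.0291). The groups did not overlap in either condition, which held for 74.0% and 73.2% of all tested genes in this line. The call in standard serum was lost without MDA-MB-436 7TGP-NEG replicate 1 (-0.20) or 2 (-0.29), without 7TGP-POS replicate 1 (-0.18) and with limma on log2(TPM + 1) (-0.14). In MDA-MB-231 the values were 46.6 and 51.0 CPM against 48.2 and 50.004 CPM in low serum, and 41.8 and 48.4 CPM against 50.3 and 51.2 CPM in standard serum. Neither passed the test, with log2 fold changes of 0.02 and 0.12 (edgeR adjusted p = 0.859 and 0.332). The promoter of *BAK1* (GRCh38.p14, chr6:33580277-33580526, minus strand) is shown because it was the 1 promoter among the members with the core of the Tcf/Lef site that drives the reporter. The capitals mark the letters ATCAAAG, whose first base lies 168 bases before the start on the strand of the gene.
BAK1: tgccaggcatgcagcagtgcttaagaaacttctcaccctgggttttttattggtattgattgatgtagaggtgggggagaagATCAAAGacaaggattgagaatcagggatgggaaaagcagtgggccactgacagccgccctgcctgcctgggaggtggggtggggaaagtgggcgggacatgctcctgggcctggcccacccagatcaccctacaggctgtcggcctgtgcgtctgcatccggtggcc

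The letters ATCAAAG were searched on both strands of the 250 bases before the start and were found in 2.26% of 35116 RefSeq promoters. RefSeq promoters were at hand for 9 of the 10 members (with 2 starts each for *BCL2L1* and *BMF*), and there was no entry for *MCL1*. The other motifs searched were GTAAACA, bound by FOXO factors (2.98% of promoters), the CRE core ACGTCA (7.10%), the AP-1 site TGANTCA (6.57%), and the κB site of NF-κB (5.21%). Each of the 5 motifs occurred in 1 of the 9 members. These are matches of letters and say nothing about binding in these cells.

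Of the BH3-only genes, *PMAIP1* (ENSG00000141682; chr18:57567228-57571537, plus strand), which encodes NOXA, changed in opposite directions in the lines. In low serum it was at 92.7 and 89.8 CPM in MDA-MB-231 7TGP-NEG and 125 and 135 CPM in 7TGP-POS, a log2 fold change of 0.52 ± 0.0542 or 1.43-fold (edgeR adjusted p = 2.15e-10). Standard-serum cells had 69.9 and 72.9 CPM against 98.8 and 105 CPM, a log2 fold change of 0.46 ± 0.0722 or 1.38-fold (edgeR adjusted p = 6.51e-05). The MDA-MB-231 groups were apart in both conditions, as for 65.7% and 66.9% of all tested genes. In MDA-MB-436 in low serum *PMAIP1* fell, from 113 and 112 CPM in 7TGP-NEG to 67.6 and 67.4 CPM in 7TGP-POS, a log2 fold change of -0.75 ± 0.0555, 1.68-fold lower (edgeR adjusted p = 6.20e-15). In standard serum the values were 70.4 and 69.1 CPM against 65.5 and 67.1 CPM, and the log2 fold change of -0.13 did not pass the test (edgeR adjusted p = 0.146). The 50 nearest genes had median log2 fold changes of 0.16 and 0.23 in MDA-MB-231, in low and standard serum, and 0.24 and 0.25 in MDA-MB-436. *PMAIP1* thus went against the median of its neighbours in MDA-MB-436 in low serum, where 4 of them had as large a change, in either direction. The promoter (GRCh38.p14, chr18:59899746-59899995, plus strand) is shown because NOXA is a known target of ATF4, a stress factor. The capitals mark a CRE core, ACGTCA, whose first base lies 56 bases before the start.
PMAIP1: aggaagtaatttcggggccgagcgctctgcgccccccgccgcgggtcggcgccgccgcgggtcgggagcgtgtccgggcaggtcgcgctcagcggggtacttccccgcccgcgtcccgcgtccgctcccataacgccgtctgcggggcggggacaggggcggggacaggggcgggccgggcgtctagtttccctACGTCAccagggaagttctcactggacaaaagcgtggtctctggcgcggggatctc

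*BMF* (ENSG00000104081; chr15:40380091-40401093, minus strand) encodes a BH3-only protein that is held at the cytoskeleton and takes part in anoikis, the death of cells that lose contact with matrix. It had the largest change of the family in MDA-MB-436. In low serum it was at 10.7 and 9.32 CPM in MDA-MB-436 7TGP-NEG and 34.8 and 38.3 CPM in 7TGP-POS, a log2 fold change of 1.85 ± 0.0782 or 3.61-fold (edgeR adjusted p = 7.23e-23). In standard serum it was at 7.73 and 7.46 CPM against 13.4 and 12.3 CPM, a log2 fold change of 0.70 ± 0.1096 or 1.63-fold (edgeR adjusted p = 3.50e-05). Both 7TGP-POS libraries were above both 7TGP-NEG libraries each time, where 74.0% and 73.2% of all tested genes had no overlap in either direction. In MDA-MB-231 it was at 38.3 and 38.9 CPM against 38.4 and 36.4 CPM in low serum and at 13.3 and 13.4 CPM against 11.97 and 11.7 CPM in standard serum. Neither difference passed the test (log2 fold changes of -0.04 and -0.23, edgeR adjusted p = 0.707 and 0.1201). The low-serum level of MDA-MB-436 7TGP-POS cells thus lay close to those of both MDA-MB-231 sublines, and MDA-MB-436 7TGP-NEG was the group that stood apart. The 50 nearest genes had median log2 fold changes of -0.05 and -0.14 in MDA-MB-436, and 2 and 7 of them had as large a change, in either direction. RefSeq gives 2 starts for *BMF*. The promoter of the first (GRCh38.p14, chr15:40108880-40109129, minus strand) is shown because *BMF* had the 1 DEG call in MDA-MB-436. The capitals mark a match to the κB site, on the strand opposite to the gene and 20 bases before the start.
BMF: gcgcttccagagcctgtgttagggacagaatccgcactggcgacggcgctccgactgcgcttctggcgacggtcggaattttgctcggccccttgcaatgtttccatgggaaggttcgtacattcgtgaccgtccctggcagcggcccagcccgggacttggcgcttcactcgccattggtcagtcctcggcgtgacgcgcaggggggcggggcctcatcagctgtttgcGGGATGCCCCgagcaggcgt

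*BCL2L11* (ENSG00000153094; chr2:111876955-111926021, plus strand) encodes BIM, which FOXO factors induce when growth factors are withdrawn and which ERK signaling keeps low. In MDA-MB-436 in low serum it rose from 19.7 and 18.2 CPM in 7TGP-NEG to 24.1 and 27.6 CPM in 7TGP-POS, a log2 fold change of 0.43 ± 0.0830 (edgeR adjusted p = 2.65e-05). The call was lost with limma on log2(TPM + 1), where the value was 0.17, and 0.32 above the median of all genes. In standard serum the groups overlapped, at 42.4 and 46.9 CPM against 48.0 and 46.2 CPM (log2 fold change 0.02, edgeR adjusted p = 0.880). In MDA-MB-231 it was at 7.57 and 6.91 CPM against 6.12 and 5.96 CPM in low serum, and the log2 fold change of -0.25 did not pass the test (edgeR adjusted p = 0.0842). In standard serum it was at 12.7 and 13.04 CPM against 11.6 and 10.3 CPM, a log2 fold change of -0.28 ± 0.103 (edgeR adjusted p = 0.0419). This call had the highest adjusted p among those of the members between reporter states. It was lost without MDA-MB-231 7TGP-NEG replicate 1 (-0.29) or 2 (-0.28), 7TGP-POS replicate 2 (-0.18) or either MDA-MB-436 7TGP-NEG library (-0.29), and also with DESeq2's Wald test (-0.30) and limma on log2(TPM + 1) (-0.21). The promoter (GRCh38.p14, chr2:111120664-111120913, plus strand) is shown for the FOXO letters GTAAACA, in capitals, whose first base lies 223 bases before the start.
BCL2L11: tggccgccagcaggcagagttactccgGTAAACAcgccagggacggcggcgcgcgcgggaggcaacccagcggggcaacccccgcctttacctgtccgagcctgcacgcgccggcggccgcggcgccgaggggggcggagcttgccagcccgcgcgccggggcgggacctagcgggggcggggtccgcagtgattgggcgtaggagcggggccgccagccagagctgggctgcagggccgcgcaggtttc

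*BBC3* (ENSG00000105327; chr19:47724079-47736023, minus strand) encodes PUMA, which is induced by DNA damage and other stress. In MDA-MB-436 in low serum it fell from 22.1 and 21.3 CPM in 7TGP-NEG to 17.4 and 19.7 CPM in 7TGP-POS, a log2 fold change of -0.24 ± 0.0817 (edgeR adjusted p = 0.0128). This call was lost without MDA-MB-436 7TGP-NEG replicate 1 (-0.23) or 7TGP-POS replicate 1 (-0.21). In MDA-MB-231 the 7TGP-POS libraries were the higher ones in both conditions, at 12.3 and 11.7 CPM against 10.99 and 10.9 CPM in low serum and 25.3 and 28.6 CPM against 20.1 and 21.2 CPM in standard serum. The log2 fold changes of 0.14 and 0.33 did not pass the test (edgeR adjusted p = 0.251 and 0.388). In standard serum the MDA-MB-436 7TGP-POS replicates were far apart, at 19.03 and 32.7 CPM, against 19.5 and 21.9 CPM in 7TGP-NEG, and the log2 fold change of 0.25 did not pass the test (edgeR adjusted p = 0.454). Without MDA-MB-436 7TGP-POS replicate 1 it was 0.57 and passed the test. Leaving out either MDA-MB-436 7TGP-POS library also let the MDA-MB-231 value of 0.33 pass, since all libraries share 1 estimate of the spread. *BBC3* is rich in G and C, at 69.7%. Between the same 2 replicates, 42 genes within 1 percentage point of that GC content had a median log2 difference of 0.61 (5th to 95th percentile 0.11 to 1.27), beside 0.76 for *BBC3*. For the other 7 groups the median of such genes lay between -0.14 and 0.24, and the difference of *BBC3* itself between -0.07 and 0.17. *BBC3* is the member whose standard-serum values rest most on single libraries. Its promoter (GRCh38.p14, chr19:47232668-47232917, minus strand) held an AP-1 site, TGAGTCA, shown in capitals, whose first base lies 113 bases before the start.
BBC3: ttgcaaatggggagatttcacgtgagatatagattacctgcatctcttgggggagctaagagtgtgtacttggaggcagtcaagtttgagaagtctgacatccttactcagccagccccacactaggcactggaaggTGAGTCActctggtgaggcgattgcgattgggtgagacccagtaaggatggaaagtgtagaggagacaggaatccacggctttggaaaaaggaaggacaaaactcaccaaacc

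The reporter effect, that is the log2 fold change of 7TGP-POS against 7TGP-NEG, was then compared between the lines in 1 fit. *BMF* and *PMAIP1* differed most in low serum. There, 7 of the 9 members above the detection limit had a different reporter effect in the lines, 3 more positive and 4 more negative in MDA-MB-231, where 45.7% of all genes did. The effect in MDA-MB-231 minus that in MDA-MB-436 was 1.26 ± 0.0776 (SE) for *PMAIP1* (edgeR adjusted p = 3.06e-17) and -1.89 ± 0.103 for *BMF* (edgeR adjusted p = 6.94e-19). It was -0.53 ± 0.0721 for *BCL2L1* (edgeR adjusted p = 5.41e-08), -0.68 ± 0.143 for *BCL2L11* and -0.51 ± 0.154 for *BCL2* (edgeR adjusted p = 0.000108 and 0.00563). *BAK1* (0.33) and *BBC3* (0.38) also passed (edgeR adjusted p = 0.00303 and 0.0108). *MCL1* (0.16) and *BAX* (0.02) did not (edgeR adjusted p = 0.0551 and 0.889). *MCL1* passed in several alternatives, among them DESeq2's Wald test (0.21), and without MDA-MB-231 7TGP-POS replicate 1 (0.19) or MDA-MB-436 7TGP-POS replicate 1 (0.22) or 2 (0.20). The calls of *BCL2*, *BAK1*, *BCL2L11* and *BBC3* were lost with limma on log2(TPM + 1), at -0.34, 0.37, -0.48 and 0.41.

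In standard serum 4 of 9 members had a different reporter effect in the lines, 2 in each direction, against 41.2% of all genes. They were *BCL2L1* at -1.02 ± 0.103 (edgeR adjusted p = 3.66e-07), *BMF* at -0.93 ± 0.153 (edgeR adjusted p = 8.59e-05), *PMAIP1* at 0.59 ± 0.102 (edgeR adjusted p = 0.000141) and *BAK1* at 0.35 ± 0.122 (edgeR adjusted p = 0.0263). The call of *BAK1* was lost without MDA-MB-231 7TGP-NEG replicate 1 (0.26), 7TGP-POS replicate 1 (0.35) or 2 (0.36), or MDA-MB-436 7TGP-NEG replicate 1 (0.31) or 2 (0.40), and with limma on log2(TPM + 1) or log2(TPM + 0.1) (0.30 each). *BCL2* (-0.41), *BCL2L11* (-0.30), *MCL1* (-0.13), *BBC3* (0.08) and *BAX* (-0.02) did not pass (edgeR adjusted p between 0.0554 and 0.947). Of these, *BCL2* passed without MDA-MB-231 7TGP-NEG replicate 2 (-0.50) or MDA-MB-436 7TGP-POS replicate 2 (-0.46) and with limma on log2(TPM + 1) (-0.39), *BCL2L11* without MDA-MB-231 7TGP-POS replicate 1 (-0.42) or MDA-MB-436 7TGP-POS replicate 2 (-0.35), and *BBC3* without the latter library (0.50). Without MDA-MB-436 7TGP-POS replicate 2, 7 members passed, and over all 15414 genes the number rose from 6355 to 7275.

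Between the lines, *BCL2L1* and *BCL2L11* stood apart in every comparison, in opposite directions. These comparisons use the same libraries as those above, in other pairs. Among the 9 members above the detection limit in MDA-MB-436, 8 differed between the lines in 7TGP-NEG cells in low serum, 4 in each direction, where 79.2% of all genes did. In 7TGP-POS cells in low serum 9 of 9 differed, against 78.5% of all genes. In standard serum 6 of 9 differed in 7TGP-NEG cells and 6 of 9 in 7TGP-POS cells, against 78.8% and 79.4% of all genes. With limma on log2(TPM + 1) the split over all 10 members in 7TGP-NEG cells was 3 higher and 5 lower in MDA-MB-231 in low serum, against 5 and 4 in the edgeR fit, and 4 higher and 3 lower in standard serum, against 6 and 1. On that scale the median log2 difference of all genes between lines was -0.19 to -0.20 in low serum, beside 0.01 and -0.07 in the edgeR fit. In standard serum it was -0.12 to -0.16, beside -0.09 and -0.08 in the edgeR fit.

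*BCL2L1*, *BCL2A1* and *BAX* were higher in MDA-MB-231 in all 4 comparisons. The log2 difference of *BCL2L1* (positive where higher in MDA-MB-231) was 1.95 ± 0.0521 in 7TGP-NEG and 1.41 ± 0.0518 in 7TGP-POS in low serum, 3.86-fold and 2.67-fold (edgeR adjusted p = 6.03e-31 and 4.92e-26). It was 2.75 ± 0.0777 and 1.73 ± 0.0748 in standard serum, 6.71-fold and 3.31-fold (edgeR adjusted p = 3.58e-16 and 1.93e-13). *BCL2A1* was at least 3.78-fold and 49.9-fold higher in MDA-MB-231 7TGP-NEG and 7TGP-POS in low serum, and at least 12.2-fold and 153-fold higher in standard serum, taking 3 counts per library as the limit in MDA-MB-436. *BAX* was higher by 0.61 to 0.64 on the log2 scale (edgeR adjusted p from 3.78e-11 to 6.20e-07). With limma on log2(TPM + 1) the difference of *BAX* in 7TGP-NEG cells in low serum was 0.21 and did not pass.

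*BCL2L11* went the other way in all 4 comparisons, lower in MDA-MB-231 than in MDA-MB-436. Its log2 difference was -1.29 ± 0.0979 in 7TGP-NEG and -1.97 ± 0.0988 in 7TGP-POS in low serum (edgeR adjusted p = 1.91e-15 and 2.53e-21), and -1.59 ± 0.0972 and -1.89 ± 0.0983 in standard serum (edgeR adjusted p = 2.80e-11 and 2.68e-12). The value of -1.97 is 3.92-fold lower. *BCL2* was lower in MDA-MB-231 in 7TGP-POS cells, by -0.67 ± 0.108 and -0.60 ± 0.114 (edgeR adjusted p = 5.43e-07 and 0.000111). In 7TGP-NEG cells the values of -0.15 and -0.19 did not pass (edgeR adjusted p = 0.196 and 0.145), and they passed with limma on log2(TPM + 1), at -0.42 and -0.30. The direction of *BCL2L1*, *BCL2A1*, *BAX*, *BCL2L11* and *BCL2* was the same under each scaling tried.

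The other members differed between lines in a way that depended on the reporter state or the serum condition. *BMF* was 4.14-fold higher in MDA-MB-231 in 7TGP-NEG cells in low serum (log2 difference 2.05 ± 0.0776, edgeR adjusted p = 1.35e-25) and 2.03-fold higher in standard serum (1.02 ± 0.111, edgeR adjusted p = 1.02e-07). In 7TGP-POS cells the difference of *BMF* was 0.16 ± 0.0666 in low serum (edgeR adjusted p = 0.0290) and 0.09 in standard serum (edgeR adjusted p = 0.438). The low-serum call was lost without MDA-MB-231 7TGP-POS replicate 1 or MDA-MB-436 7TGP-POS replicate 1 (0.15 each) and with DESeq2's Wald test (0.19), and the sign turned with limma on log2(TPM + 1), to -0.19, which is 0.01 above the median of all genes. Among 7TGP-POS cells *PMAIP1* was higher in MDA-MB-231, by 1.07 ± 0.0554 and 0.83 ± 0.0723 in low and standard serum (edgeR adjusted p = 8.37e-21 and 4.97e-09). In 7TGP-NEG cells *PMAIP1* differed by -0.20 ± 0.0544 in low serum (edgeR adjusted p = 0.00118). Standard-serum CPM values of *PMAIP1* in these cells overlapped, at 69.9 and 72.9 in MDA-MB-231 and 70.4 and 69.1 in MDA-MB-436. The fitted difference there was 0.24 ± 0.0726 (edgeR adjusted p = 0.00580). The latter value was lost without MDA-MB-231 7TGP-NEG replicate 2 (0.22) or MDA-MB-436 7TGP-NEG replicate 2 (0.21), and with limma on log2(TPM + 1) it was 0.07.

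*MCL1* was lower in MDA-MB-231 in low serum, by -0.37 ± 0.0493 in 7TGP-NEG and -0.21 ± 0.0493 in 7TGP-POS cells (edgeR adjusted p = 8.01e-09 and 0.000206). In standard serum *MCL1* differed by 0.24 ± 0.0727 in 7TGP-NEG cells (edgeR adjusted p = 0.00590), although its CPM values there nearly coincided. That call was lost without MDA-MB-231 7TGP-NEG replicate 2 (0.23), and with limma on log2(TPM + 1) the value was 0.07. In 7TGP-POS cells the value of 0.11 did not pass (edgeR adjusted p = 0.176). *BBC3* was lower in MDA-MB-231 in low serum, by -0.88 ± 0.0874 and -0.50 ± 0.0885 (edgeR adjusted p = 4.10e-12 and 2.54e-06), and in standard serum its values of 0.20 and 0.28 did not pass (edgeR adjusted p = 0.495 and 0.335). Without MDA-MB-436 7TGP-POS replicate 2 the latter was 0.69 and passed. *BAK1* was higher in MDA-MB-231 in low serum, by 0.44 ± 0.0649 in 7TGP-NEG and 0.77 ± 0.0665 in 7TGP-POS (edgeR adjusted p = 6.86e-08 and 8.24e-14), and by 0.32 ± 0.0859 in 7TGP-POS in standard serum (edgeR adjusted p = 0.00219), with -0.03 in 7TGP-NEG (edgeR adjusted p = 0.757). With limma on log2(TPM + 1) the first of these was 0.04 and the third 0.10, and neither passed.

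**Figure D4:**
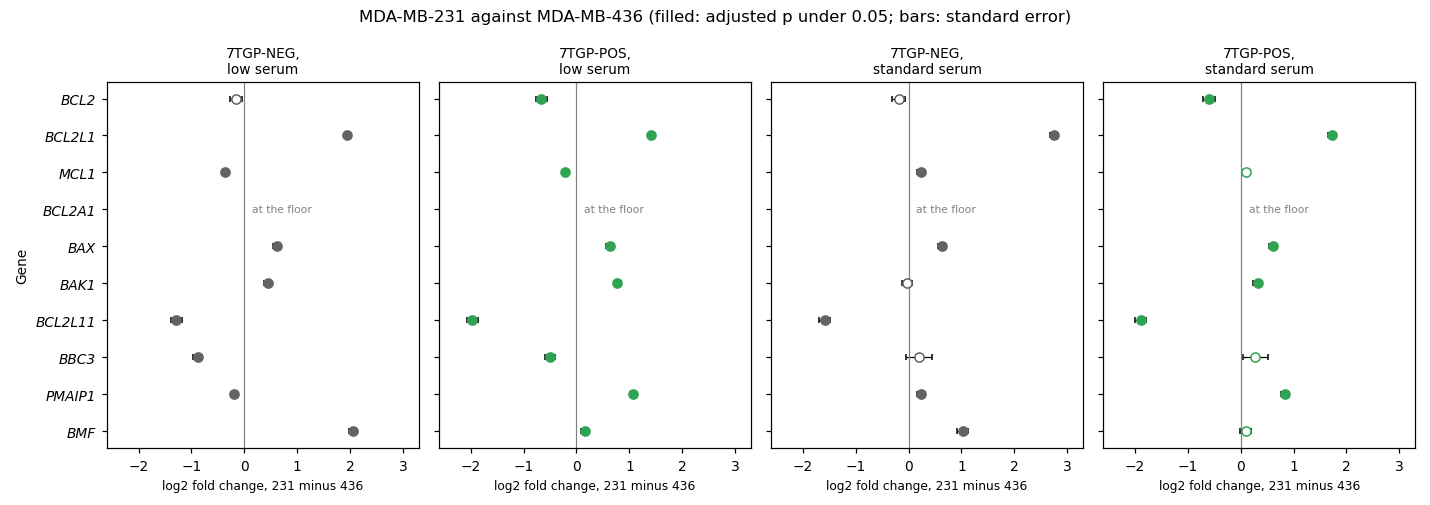
Log2 fold change of MDA-MB-231 against MDA-MB-436 (x axis, edgeR, error bars are 1 SE) of the members (y axis), in 7TGP-NEG and 7TGP-POS cells, in low and in standard serum. *BCL2A1* is marked as at the detection limit in MDA-MB-436. *BCL2L1* lies between 1.41 and 2.75 and *BCL2L11* between -1.97 and -1.29, whereas *BMF* lies at 2.05 and 1.02 in 7TGP-NEG cells and at 0.16 and 0.09 in 7TGP-POS cells.

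Between the serum conditions the values can only be set side by side. *BCL2L1* was at 511 and 519 CPM in low serum and 1045 and 1039 CPM in standard serum in MDA-MB-231 7TGP-NEG, whereas *BMF* was at 38.3 and 38.9 CPM in low serum and 13.3 and 13.4 CPM in standard serum in the same subline. *BCL2L11* in MDA-MB-436 7TGP-NEG was at 19.7 and 18.2 CPM in low serum and 42.4 and 46.9 CPM in standard serum. Serum, day, library type and sequencing run differed together between these values.

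Genes of the surrounding pathway were read from lists named by function, whose counts are set beside the share of all tested genes that changed. Among 11 other *BCL2* family genes, 1 was higher and 1 lower in 7TGP-POS than in 7TGP-NEG cells of MDA-MB-231 in low serum, and 0 higher and 1 lower in standard serum, where 38.9% and 33.0% of all genes changed. In MDA-MB-436 the counts were 3 higher and 4 lower in low serum and 3 higher and 3 lower in standard serum, against 52.0% and 49.5% of all genes. The median log2 fold change of this list was 0.05 and -0.03 in MDA-MB-231 and -0.29 and -0.30 in MDA-MB-436. *BIK*, a BH3-only gene, was the DEG of the list, in MDA-MB-436 in standard serum, at a mean of 6.597 CPM in 7TGP-NEG and 2.90 CPM in 7TGP-POS (log2 fold change -1.27, edgeR adjusted p = 0.000935). *BOK*, a BAX-like effector, was lower in 7TGP-POS cells of MDA-MB-231 (-0.24 and -0.46 in low and standard serum) and higher in those of MDA-MB-436 (0.83 and 0.92). It was chosen after its values were seen.

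The inhibitors of apoptosis proteins (IAPs), which bind caspases or mark proteins for degradation, were read from 7 tested genes. In MDA-MB-231 5 were higher and 0 lower in 7TGP-POS cells in each serum condition, where 19.0% and 16.8% of all genes were higher, with median log2 fold changes of 0.44 and 0.60. In MDA-MB-436 the counts were 2 higher and 2 lower in low serum and 3 higher and 1 lower in standard serum, where 52.0% and 49.5% of all genes changed, with medians of 0.00 and 0.24. *BIRC3* (cIAP2), like *BCL2A1* a known NF-κB target, rose in MDA-MB-231 from a mean of 86.7 to 244 CPM in low serum (log2 fold change 1.499 ± 0.0527, edgeR adjusted p = 3.30e-25) and from 60.2 to 216 CPM in standard serum (1.79 ± 0.0921, edgeR adjusted p = 8.06e-11). *XAF1* is on the list as the antagonist of XIAP and is induced by interferon. It rose in MDA-MB-231 in standard serum (1.23 ± 0.1497, edgeR adjusted p = 3.94e-06). In MDA-MB-436 it went from 1.95 to 9.86 CPM in low serum (2.31 ± 0.164, edgeR adjusted p = 4.04e-13) and from 6.99 to 0.860 CPM in standard serum (-3.07 ± 0.182, edgeR adjusted p = 1.84e-10).

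Of 15 genes for the apoptosome, the caspases and proteins released from mitochondria, 5 were higher and 3 lower in 7TGP-POS cells of MDA-MB-231 in low serum and 6 higher and 3 lower in standard serum, against 38.9% and 33.0% of all genes, with medians of 0.03 in both. In MDA-MB-436 the counts were 3 higher and 5 lower, and 3 higher and 7 lower, against 52.0% and 49.5% of all genes, with medians of -0.06 and -0.13. *CASP10*, an initiator caspase of death receptors, was the DEG of this list and was higher in MDA-MB-436 7TGP-POS cells, at 8.73 CPM against 1.85 CPM in low serum (log2 fold change 2.23 ± 0.163, edgeR adjusted p = 4.81e-13) and 3.06 CPM against 0.812 CPM in standard serum (1.86, edgeR adjusted p = 1.36e-07).

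Of 20 transcription factors known to act on *BCL2* family genes, 6 were higher and 3 lower in 7TGP-POS cells of MDA-MB-231 in low serum and 5 higher and 2 lower in standard serum, against 38.9% and 33.0% of all genes, with medians of 0.12 in both. In MDA-MB-436 they were 8 higher and 7 lower, and 8 higher and 4 lower, against 52.0% and 49.5% of all genes, with medians of 0.01 and 0.15. *TP63*, which marks basal epithelial cells, rose in MDA-MB-231 from a mean of 4.66 to 22.3 CPM in low serum (log2 fold change 2.26 ± 0.114, edgeR adjusted p = 6.95e-20) and from 0.505 to 6.64 CPM in standard serum (3.67 ± 0.246, edgeR adjusted p = 2.12e-09). In MDA-MB-436 *TP63* was higher by 1.14 ± 0.266 in low serum (edgeR adjusted p = 0.000363) and by 1.21 in standard serum (edgeR adjusted p = 0.0288). The latter was lost without MDA-MB-436 7TGP-NEG replicate 1 (1.01) or 2 (1.46) or 7TGP-POS replicate 1 (0.79). *TP73*, a transcription factor related to *TP63*, was lower in 7TGP-POS cells of MDA-MB-231, by -1.24 ± 0.155 and -1.06 in low and standard serum (edgeR adjusted p = 1.48e-08 and 0.000495). *E2F1*, which drives entry into S phase, was lower in 7TGP-POS cells of MDA-MB-231 in standard serum (-1.14, edgeR adjusted p = 8.54e-09). Of 16 regulators of the MCL1, BIM, BMF and BAX proteins, 3 were higher and 6 lower in MDA-MB-231 in low serum and 2 higher and 2 lower in standard serum, and 3 higher and 4 lower, and 5 higher and 3 lower, in MDA-MB-436, against the same shares of all genes, with medians of -0.06, -0.10, 0.01 and 0.11. The number of DEGs in that list was 0.

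For each member the protein-coding genes with the most similar pattern over the 16 libraries were found among 12492 genes, by Pearson's r of log2 CPM after subtraction of the mean of each serum condition. The 16 libraries are 8 groups of 2, so a high r reflects few independent points, and r is given as a description. *BCL2A1* was closest to *KRT81* (r = 0.991), *USP22* (0.987) and *BIRC3* (0.987), the IAP gene described above. It reached the mean of 1 CPM required here only through the MDA-MB-231 7TGP-POS libraries. Every MDA-MB-436 library was at the detection limit for *BCL2A1*, so these r values rest in part on values at that limit. *BCL2L1* was closest to *LPIN2* (0.998), *BCL2L11* to *IQCE* (0.997), *BCL2* to *TULP4* (0.989), *BAX* to *DPAGT1* (0.979) and *BMF* to *SLC12A8* (0.979). The best matches were less close for *MCL1* (*ADM2*, 0.956), *BAK1* (*MAP3K13*, 0.941), *PMAIP1* (*DNAH5*, 0.928) and *BBC3* (*DUSP1*, 0.909). Among the members themselves, *BCL2L11* ran with *BCL2* (0.915) and against *BCL2L1* (-0.928) and *BAX* (-0.920). *BCL2L1* ran with *BAX* (0.851).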

How the data were processed

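RNA-seq was measured in 16 libraries, 2 per group. Per the methods of the study, the authors aligned reads with STAR to hg19 (STAR 2.6.1a per the submitters' notes, which also list edgeR 3.22.5 and limma) and counted read pairs per gene of Gencode release 19. The count tables were deposited by the authors as raw counts, and the TPM tables, whose making is not given in the sources used here, were deposited beside them. The study names STAR's gene quantification mode for the counts. How reads from paralogs or overlapping genes were handled is not stated there, so the counts of such genes may miss reads. Samples were grouped by their labels.

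From the counts, protein-coding genes whose 8 libraries of a serum condition summed to 10 counts or more were kept, scaled by TMM and fitted with 4 group means per serum condition, using edgeR 4.0.16 (glmQLFit and glmQLFTest) in R 4.3.3, with Benjamini-Hochberg adjustment over all tested genes. The SE was taken as the size of the log2 fold change over √F. CPM used the total counts, and TPM was used as deposited. A group with at most 3 counts in each library was taken as at the detection limit, and no fold between 2 such groups is given. Such limits and p-values cover these libraries only. Alternatives used DESeq2 1.42.0 and limma 3.58.1, the latter on log2(TPM + 1) and log2(TPM + 0.1). Neighbouring genes were protein-coding with a mean of at least 1 CPM, by distance in Gencode release 44 lifted to GRCh37, which also gave the coordinates. Promoters came from RefSeq (GRCh38.p14). Python 3.11.15, numpy 2.4.6, pandas 2.3.3 and matplotlib 3.10.9 were used.

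All 10 members were named in every comparison. From the pathway lists, genes with an adjusted p under 0.05 and a log2 fold change of 1 or more in size were named, and for likeness the 3 closest genes per member were found, of which the closest is given for most. The members and lists were chosen with earlier results of these data known. Columns of other samples in the tables numbered 0. Some genes of the marker lists are not reported here.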

Additional observations from a re-analysis of the deposited data

Results flagged for a closer look

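The members below were picked out because the reporter effect (log2 fold change of 7TGP-POS against 7TGP-NEG) differed between the lines in edgeR's test of the difference itself. The values are MDA-MB-231 minus MDA-MB-436 on the log2 scale. In low serum they were -0.51 for *BCL2*, -0.53 for *BCL2L1*, 0.33 for *BAK1*, -0.68 for *BCL2L11*, 0.38 for *BBC3*, 1.26 for *PMAIP1* and -1.89 for *BMF*. In standard serum they were -1.02 for *BCL2L1*, 0.35 for *BAK1*, 0.59 for *PMAIP1* and -0.93 for *BMF*. *BCL2L1*, *BAK1*, *PMAIP1* and *BMF* passed in both serum conditions. *PMAIP1* in low serum passed the test within each line with opposite signs, 0.52 in MDA-MB-231 and -0.75 in MDA-MB-436, and *BCL2L1* in standard serum likewise, -0.72 and 0.30.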

How the results depend on the processing

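With 2 replicates per group and 1 subline per state, small changes rest on single libraries, as given beside each gene. The labels do not say that equal replicate numbers mark a shared day or batch, and with 2 numbers the data cannot settle it: replicate differences of the groups correlated between -0.126 and 0.0330 in low serum and between -0.0297 and 0.226 in standard serum, where 4 of 6 pairs of groups were above 0.1. The block moved the standard-serum calls over all genes from 5084 to 5569 in MDA-MB-231 and from 7631 to 8137 in MDA-MB-436. With a replicate block the count of members called (*BCL2A1* included in all counts here) was 3, 7, 8, 9 and 10 in low serum, for MDA-MB-231, MDA-MB-436, the difference of the reporter effect, and the lines in 7TGP-NEG and 7TGP-POS cells. In standard serum it was 4, 4, 5, 7 and 7. Over all genes the block gave, in that order, 6055, 8153, 7184, 12629 and 12504 calls among 16069 in low serum. In standard serum they were 5569, 8137, 6843, 12358 and 12390 among 15414. The block added 1 call, the difference for *BCL2* in standard serum (-0.40), and ended 0. With the numbers of the MDA-MB-436 7TGP-POS libraries crossed, a setting chosen after seeing the data, the low-serum counts were 3, 7, 9, 9 and 10. When a log2 fold change of 1 or more in size was also required, the low-serum counts in that order were 1, 1, 3, 4 and 4 and the standard-serum counts 1, 0, 1, 4 and 3. Of all 16069 tested genes in low serum, 948, 1694, 1884, 6732 and 6245 met this rule. Of the 15414 in standard serum, 1185, 1932, 2132, 7201 and 6993 did. The count for the difference in low serum, 8 in the edgeR fit, was 4 with limma on log2(TPM + 1) and 3 on log2(TPM + 0.1). Over all genes the calls for that difference went from 7345 to 5118 and 4870. Leaving out each library in turn gave 2 to 4 members in MDA-MB-436 and 3 to 7 for the difference in standard serum. *BMF* between lines in 7TGP-POS cells in low serum turned from 0.16 to -0.19 and -0.20 with the TPM scales, 0.01 and 0.17 above the median of all genes; the cause was not tested. DESeq2's Wald test kept the side of the threshold for 105 of 111 values, with 1 gained and 5 lost, and DESeq2's size factors for 110. Over all leave-one-out fits 848 values kept it, 13 were gained and 27 lost. Genes near 1 CPM, such as *BCL2A1* in MDA-MB-231 7TGP-NEG, are limited by depth.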
